A study of Mus musculus with 12 samples.

Results

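The Janus kinases (JAKs) and the signal transducers and activators of transcription (STATs) were followed as 9 genes, the kinases *Jak1*, *Jak2* and *Tyk2* and the factors *Stat2*, *Stat3*, *Stat4*, *Stat5a*, *Stat5b* and *Stat6*, out of 55335 genes in a table of read counts. Each symbol had 1 row. The table held 12 mouse RNA-seq libraries in 4 groups of 3. Bone-marrow-derived macrophages (BMDMs) came from male mice 6 weeks old, were grown for 7 days with the growth factor M-CSF (10 ng/mL) and then received thyroid-stimulating hormone (TSH, 1 ng/mL) for 24 h. Livers came from male mice put on a high-fat diet (HFD) at 6 weeks of age for 9 weeks, fasted for 8 h and killed 5 min after an insulin dose of 1.5 U/kg. In both tissues the control was *Tshr* f/f, in which the TSH receptor gene is flanked by loxP sites, and the other group was *Tshr* MKO, which carries the same floxed alleles with Lyz2-Cre, a recombinase expressed from a myeloid promoter. Hepatocytes therefore keep the receptor gene in both genotypes, each liver library is a mixture of cell types, and every BMDM library received TSH, so no value without the hormone exists for comparison.

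JAKs are tyrosine kinases that sit on the cytoplasmic tails of cytokine receptors. When a cytokine draws its receptor chains together, the kinases phosphorylate each other and the receptor, STAT proteins dock on the new phosphotyrosines through their SH2 domains, are phosphorylated in turn, pair up and enter the nucleus. SOCS proteins, made from STAT target genes, close the loop by blocking the kinases. In macrophages the pathway carries interferon, interleukin-6 and interleukin-4 signals, and in liver it carries the acute-phase response through STAT3 and growth hormone through JAK2 and STAT5. Transcript counts say nothing of phosphorylation, so what follows concerns how much of each mRNA was present.

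The BMDM libraries held 33683981–40954211 counts and the liver libraries 28962878–40420513. *Tshr* had 0–5 counts in a BMDM library and 0 in every liver library, so its loss could not be checked from the counts. The 6 hepatocyte markers (*Alb* and others) were all at 0 in the *Tshr* f/f BMDMs and summed to at most 0.235 CPM (read counts scaled to a common library total) in a *Tshr* MKO BMDM library, while the 7 macrophage markers summed to 14777–16288 CPM in *Tshr* f/f and 20032–29334 CPM in *Tshr* MKO BMDMs. *Lyz2*, the gene whose promoter drives the Cre, made that gap (8773–9844 and 14537–22320 CPM), and the other 6 markers summed to 5906–6444 and 5495–7014 CPM, which overlap. In 2 BMDM libraries, both *Tshr* f/f, a value stood apart: the scaling factor of replicate 3 was 0.738, against 0.993–1.114 in the other 5, and the stellate and fibroblast markers summed to 1762 CPM in replicate 2, against 378–733 CPM in the other 5. The part of fibroblast RNA in the BMDM values was not tested, and several of the results that moved when either library was left out are given with and without it. The genotype of the livers is given as the libraries are labelled, because the study lists liver counts of these libraries under the name of the other group, and every direction in liver depends on the labels. Nothing in the labels says that same-group libraries came from separate animals. For both tissues the paper's methods speak of male *Tshr* MKO and *Tshr* f/f littermates, with n = 3 per group. The p-values measure the spread between these samples.

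*Stat5b*, *Stat5a* and *Stat3* lie side by side on mouse chromosome 11 (GRCm38). *Stat5b* (ENSMUSG00000020919, chr11:100780731-100850724, minus strand) and *Stat5a* (ENSMUSG00000004043, chr11:100859351-100885169, plus strand) are transcribed away from each other across a gap of 8626 bases, and *Stat5a* runs into *Stat3* (ENSMUSG00000004040, chr11:100885098-100939540, minus strand), with which it shares 72 bases at the 3′ ends. The other members overlap no other member: *Jak1* (ENSMUSG00000028530, chr4:101152367-101265282, minus strand), *Jak2* (ENSMUSG00000024789, chr19:29251828-29313080, plus strand), *Tyk2* (ENSMUSG00000032175, chr9:21104068-21131243, minus strand), *Stat2* (ENSMUSG00000040033, chr10:128270559-128292849, plus strand), *Stat6* (ENSMUSG00000002147, chr10:127642986-127660957, plus strand) and *Stat4* (ENSMUSG00000062939, chr1:51987148-52107189, plus strand). Exons of *Jak1* and *Stat6* share 4 and 40 bases with *Raver2* and *Nab2* on the opposite strand. *Stat5a* and *Stat5b* encode near-identical proteins, and 3.44% of the 100-base stretches in *Stat5a* exons also occur in *Stat5b*, against 4.79% the other way, so a small part of their reads could be split between them. Of the *Tyk2* exons, 554 bases overlap the antisense gene 1700084C06Rik, and of the *Stat4* exons, 1033 bases overlap Gm28177 on the same strand, so reads over these bases need not all belong to the member.

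Several STAT dimers bind the palindrome TTCNNNGAA, the GAS element, and only these letters were searched. RefSeq promoters of 300 bases, 250 before and 50 after each start on GRCm38.p6, covered all 9 members with 12 windows. No member window held these letters, which 8.3% of 32851 promoters hold. The window of *Jak2*, the member with the widest gap between genotypes, is shown.
Jak2, chr19:29251553-29251852, plus strand: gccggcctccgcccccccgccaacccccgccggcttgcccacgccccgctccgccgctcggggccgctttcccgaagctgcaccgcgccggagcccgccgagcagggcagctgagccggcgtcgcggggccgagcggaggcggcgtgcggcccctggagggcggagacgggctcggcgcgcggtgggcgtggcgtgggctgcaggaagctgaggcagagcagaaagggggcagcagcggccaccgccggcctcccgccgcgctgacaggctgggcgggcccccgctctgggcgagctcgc
No match says only that the letters are not in these windows, and binding was not measured.

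In BMDMs, levels per length (TPM, read counts per kilobase of exon scaled to a common total, mean ± SD over 6 libraries) placed *Jak1* first at 167 ± 9.65, followed by *Jak2* at 158 ± 132 and *Stat6*, the factor that answers interleukin-4, at 156 ± 29.4. By this measure the place of *Jak2* went with genotype. It lay above both others in all 3 *Tshr* f/f libraries (187.8–393.9 TPM) and below both in all 3 *Tshr* MKO libraries (55.9–60.96 TPM). The order in *Tshr* f/f depends on the exon lengths. The exons of *Jak1* join to 7227 bases, against 4906 in its longest transcript, while both lengths are 5030 bases for *Jak2*. Before division by length, *Jak1* had more counts in *Tshr* f/f replicates 1 and 2 (15251 and 16123) than *Jak2* (12075 and 11712). In replicate 3 it had fewer (13978 against 22269). Below them, by the mean, came *Stat3* at 91.6 ± 42.9 and *Stat2* at 90.1 ± 35.6, with *Stat3* above *Stat2* in 2 of 3 *Tshr* f/f and 1 of 3 *Tshr* MKO libraries. *Tyk2* (55.2 ± 7.01 TPM), *Stat5b* (38.6 ± 5.94 TPM), *Stat5a* (12.96 ± 0.64 TPM) and *Stat4* (2.57 ± 1.45 TPM) kept that order in 6 of 6 libraries. In liver *Stat3*, the factor of the acute-phase response, led at 39.6 ± 8.04 TPM, with *Stat6* at 38.1 ± 6.18 and *Stat2* at 36.7 ± 6.71, neighbours that exceeded each other in 3 of 6 libraries. *Jak1* followed at 31.5 ± 3.91 TPM, *Stat5b* at 20.8 ± 3.62, *Tyk2* at 9.95 ± 0.80, *Jak2* at 5.96 ± 1.57, *Stat5a* at 4.22 ± 0.77 and *Stat4* at 0.222 ± 0.142. By this length measure *Jak2* thus led by the mean in *Tshr* f/f BMDMs (256.7 TPM). In *Tshr* MKO BMDMs its mean of 58.9 TPM lay below those of *Stat6*, *Jak1*, *Stat2* and *Stat3*, and in liver it was the seventh of 9.

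**Figure D1:**
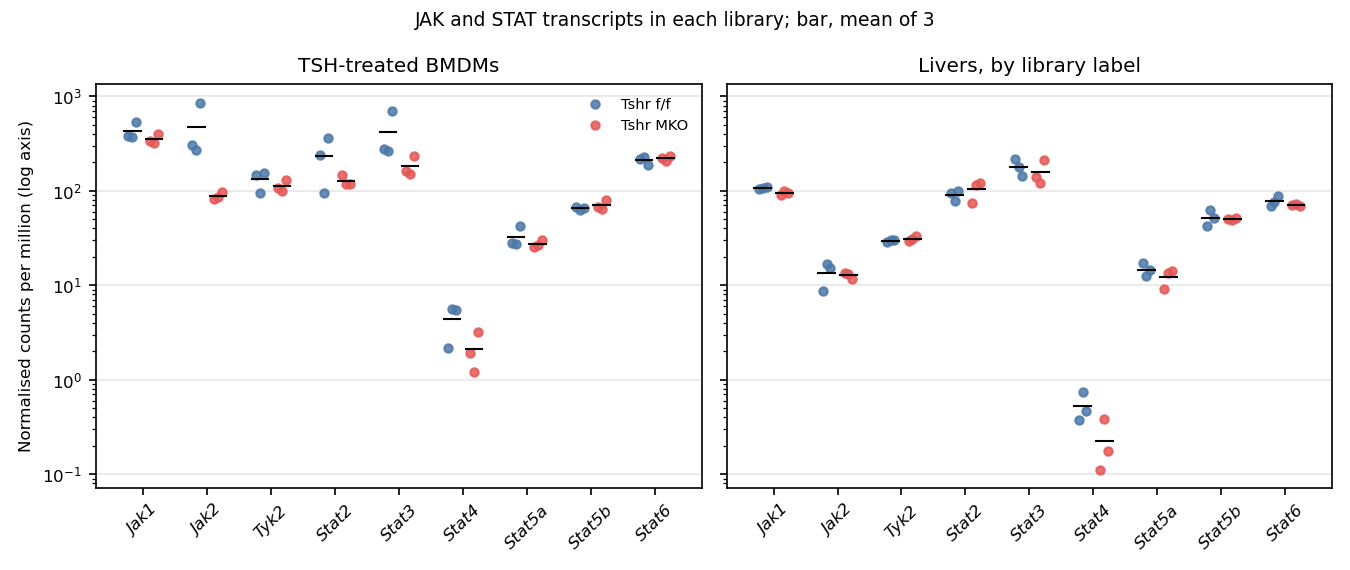
Normalised CPM (log axis, scaled within each tissue) of the 9 genes in each BMDM library (left) and each liver library by its label (right), with a point per library and a bar at the mean of 3. *Jak2* and *Stat3* are the genes whose *Tshr* f/f BMDM points all lie above the *Tshr* MKO points, and the highest point of each is *Tshr* f/f replicate 3, at 855.1 and 705.5 CPM.

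The first question was whether TSH-treated macrophages with and without the floxed receptor gene deleted differ in the members' mRNA. Among the kinases, *Jak2*, which serves the receptors for interferon-γ, GM-CSF and growth hormone, showed the widest gap. It stood at 303.2, 268.2 and 855.1 normalised CPM in *Tshr* f/f replicates 1–3 and at 82.9, 86.6 and 98.3 CPM in *Tshr* MKO. All 3 *Tshr* f/f libraries lay above all 3 *Tshr* MKO libraries, which were close to each other, and *Tshr* f/f replicate 3 held 2.99 times the mean of the other 2. The means were 475.5 ± 329.2 and 89.3 ± 8.06 CPM (SD, n = 3), a log2 fold change (*Tshr* MKO minus *Tshr* f/f) of -2.41 (SE 0.48, 95% interval -3.58 to -1.25). By the edgeR quasi-likelihood test its unadjusted p was 0.00209 and its Benjamini–Hochberg adjusted p 0.218, so the difference did not pass. With *Tshr* f/f replicate 3 left out, the log2 fold change was -1.68 (adjusted p = 0.064), and the mean of *Tshr* f/f replicates 1 and 2 was 3.2 times the *Tshr* MKO mean. The 2 fits that placed *Jak2* past the threshold were DESeq2 (adjusted p = 4.53e-05) and edgeR with all 12 libraries sharing the estimate of spread (adjusted p = 0.0414), against 0.0599–0.587 in the other alternatives.

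The other kinases had no such gap. *Jak1*, which pairs with gp130, interferon and common γ chain receptors, stood at 382.9, 369.3 and 536.8 CPM in *Tshr* f/f and 337.4, 321.4 and 402.2 CPM in *Tshr* MKO, so the groups overlapped (log2 fold change -0.28, 95% interval -0.79 to 0.23). *Tyk2*, the kinase of the type I interferon and interleukin-12 receptors, ranged over 95.3–155.8 CPM in *Tshr* f/f and 99.0–130.6 CPM in *Tshr* MKO (log2 fold change -0.25, 95% interval -0.80 to 0.30). Differences within these intervals were not detectable with 3 libraries a group.

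Among the factors, *Stat3*, the transducer of interleukin-6 and interleukin-10 signals, came next. Its libraries held 276.6, 266.3 and 705.5 CPM in *Tshr* f/f and 161.2, 151.2 and 231.9 CPM in *Tshr* MKO, again without overlap and again with *Tshr* f/f replicate 3 on top. The log2 fold change was -1.20 (SE 0.44, 95% interval -2.25 to -0.15; edgeR unadjusted p = 0.0314, adjusted p = 0.257), and it was -0.58 without *Tshr* f/f replicate 3 (unadjusted p = 0.0296). The unadjusted call was lost when *Tshr* MKO replicate 1 was dropped (log2 fold change -1.12, edgeR unadjusted p = 0.0918) or *Tshr* MKO replicate 2 (-1.08, edgeR unadjusted p = 0.0964).

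*Stat2*, which works with IRF9 in the interferon response, was spread widely among the controls, at 238.1, 94.5 and 363.5 CPM in *Tshr* f/f and 147, 118.5 and 119.6 CPM in *Tshr* MKO. The *Tshr* f/f library with the least *Stat2*, replicate 2, lay below all 3 *Tshr* MKO libraries, so the groups overlapped. Its log2 fold change was -0.85 (SE 0.46, edgeR adjusted p = 0.362), and it was -0.38 when *Tshr* f/f replicate 3 was left out and -1.23 when *Tshr* f/f replicate 2 was (edgeR unadjusted p = 0.00219, adjusted p = 0.074). *Stat4*, the interleukin-12 factor of T and NK cells, was scarce, with 86, 243 and 143 counts in *Tshr* f/f and 73, 45 and 134 counts in *Tshr* MKO (log2 fold change -1.06, SE 0.51, edgeR adjusted p = 0.324). The summed T and NK cell markers were 30.2–48.1 CPM in *Tshr* f/f and 10.8–44.9 CPM in *Tshr* MKO BMDMs, with 0 of 8 markers at 0 in either group, and their part in the *Stat4* counts was not tested. In these bulk libraries fewer cells of a type and less RNA per cell cannot be told apart.

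The remaining factors had fitted log2 fold changes between -0.24 and 0.10. *Stat5a* ranged over 27.4–42.2 CPM in *Tshr* f/f and 25.5–30.3 CPM in *Tshr* MKO, a log2 fold change of -0.24 that went to about zero without *Tshr* f/f replicate 3. *Stat5b* ranged over 63.1–67.8 and 63.6–79.5 CPM, a log2 fold change of 0.10 (95% interval -0.21 to 0.40). *Stat6* ranged over 187.5–226.5 and 205.9–234.7 CPM, a log2 fold change of 0.07 (95% interval -0.29 to 0.44).

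Counted together, 0 of the 9 members passed an adjusted p of 0.05 in edgeR, as did 0% of all 15372 genes tested, and DESeq2 called 1 member (*Jak2*), beside 6.73% of the 16348 genes it gave an adjusted p. At an unadjusted p under 0.05 there were 2 members, *Jak2* and *Stat3*, both lower in *Tshr* MKO, beside 10.2% of all genes lower and 17.9% in either direction at that level. Without *Tshr* f/f replicate 2 there were 4 (*Tyk2* and *Stat2* besides), and without *Tshr* MKO replicate 1 or 2 there was 1, *Jak2*. The same 2 were without overlap between the groups, beside 14% of all genes lower and 28.7% in either direction without overlap, so the members' counts did not stand out from those of all genes. In 6 members (*Jak1*, *Jak2*, *Tyk2*, *Stat2*, *Stat3* and *Stat5a*) the highest BMDM value was that of *Tshr* f/f replicate 3, whereas *Stat6* had its lowest there. With scaling by library totals alone, the library kept first place of 6 for *Jak2*, *Stat2*, *Stat3* and *Stat5a*, and ranked 3 of 6 for *Jak1* and 4 of 6 for *Tyk2*.

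**Figure D2:**
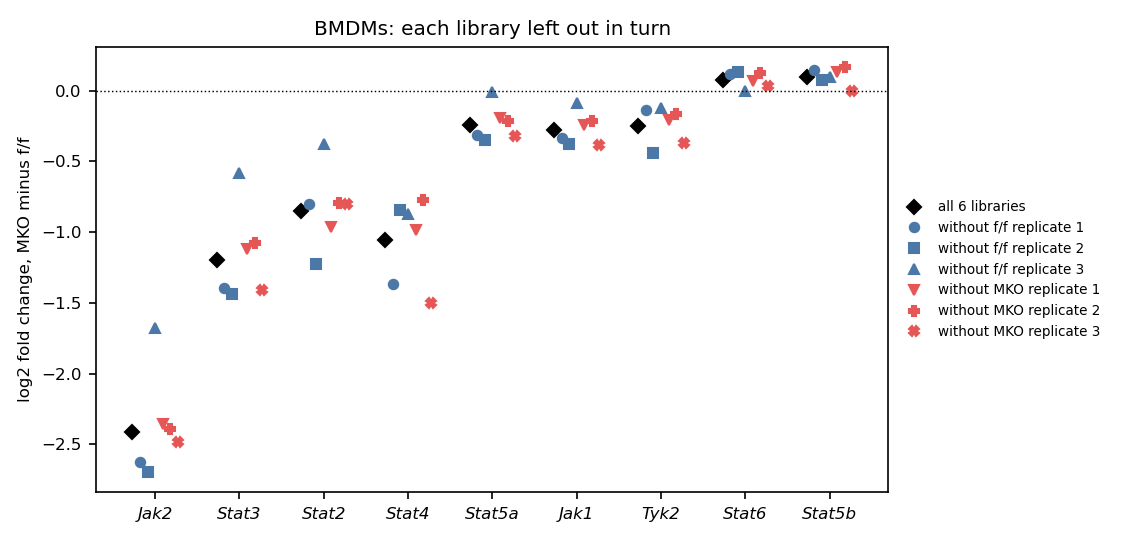
Log2 fold change (*Tshr* MKO minus *Tshr* f/f, vertical axis) of each gene in BMDMs with all 6 libraries (black diamonds) and with each library left out (blue for *Tshr* f/f, red for *Tshr* MKO). For *Jak2* every setting lies between -2.70 and -1.68, and for *Stat3* and *Stat2* the point nearest zero, at -0.58 and -0.38, is the one without *Tshr* f/f replicate 3.

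In the livers 8 of the 9 members had fitted log2 fold changes (MKO-labelled minus f/f-labelled) between -0.26 and 0.20, and *Stat4*, with few counts, one of -1.21. *Jak1* was the member whose groups did not overlap, at 105.1, 107.5 and 109.9 CPM in f/f-labelled livers and 89.6, 100.8 and 95.1 CPM in MKO-labelled livers. The means were 107.5 ± 2.41 and 95.2 ± 5.59 CPM, a log2 fold change of -0.18 (SE 0.09, 95% interval -0.38 to 0.03; edgeR adjusted p = 0.517). Its difference had the same sign within both first letters that the labels give the liver samples, -0.16 among the samples with A (2 against 1) and -0.21 among those with B (1 against 2).

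*Jak2* held 8.80, 16.7 and 15.3 CPM in f/f-labelled livers and 13.6, 13.3 and 11.7 CPM in MKO-labelled livers, so the groups overlapped, and the log2 fold change was -0.08 (95% interval -0.64 to 0.48). *Stat3* held 218.6, 178.7 and 144 CPM against 140.4, 121 and 212.7 CPM (log2 fold change -0.19, 95% interval -0.77 to 0.39), with the highest value of each label close to that of the other. *Stat2* held 95.1, 78.2 and 98.6 CPM against 74.9, 116.3 and 120.3 CPM (log2 fold change 0.20, 95% interval -0.27 to 0.66). For *Stat2* the difference was 0.47 among the A samples and -0.04 among the B samples, so it did not hold within both.

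*Stat5b*, which carries the growth hormone signal in hepatocytes, lay at 42.7–62.4 CPM in f/f-labelled livers and 48.9–51.2 CPM in MKO-labelled livers (log2 fold change -0.06, 95% interval -0.39 to 0.27). *Stat5a* lay at 12.6–17.1 and 9.08–14.3 CPM (-0.26), *Stat6* at 69.2–88.98 and 69.1–72.8 CPM (-0.13), and *Tyk2* at 28.6–30.5 and 29.2–33.5 CPM (0.07). *Stat4* had 11, 27 and 14 counts against 4, 16 and 5 (log2 fold change -1.21, SE 0.60, edgeR adjusted p = 0.526), too few for a narrower statement.

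No member passed in liver: 0 of 9 at an adjusted p of 0.05 by edgeR (0% of 15062 genes tested) or by DESeq2 (1.68% of 13103 genes), and 0 of 9 at an unadjusted p of 0.05 by either tool, beside 10.5% of all genes by edgeR. The 1 member without overlap stood beside 17.3% of all genes without overlap in either direction and 7.74% lower.

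**Figure D3:**
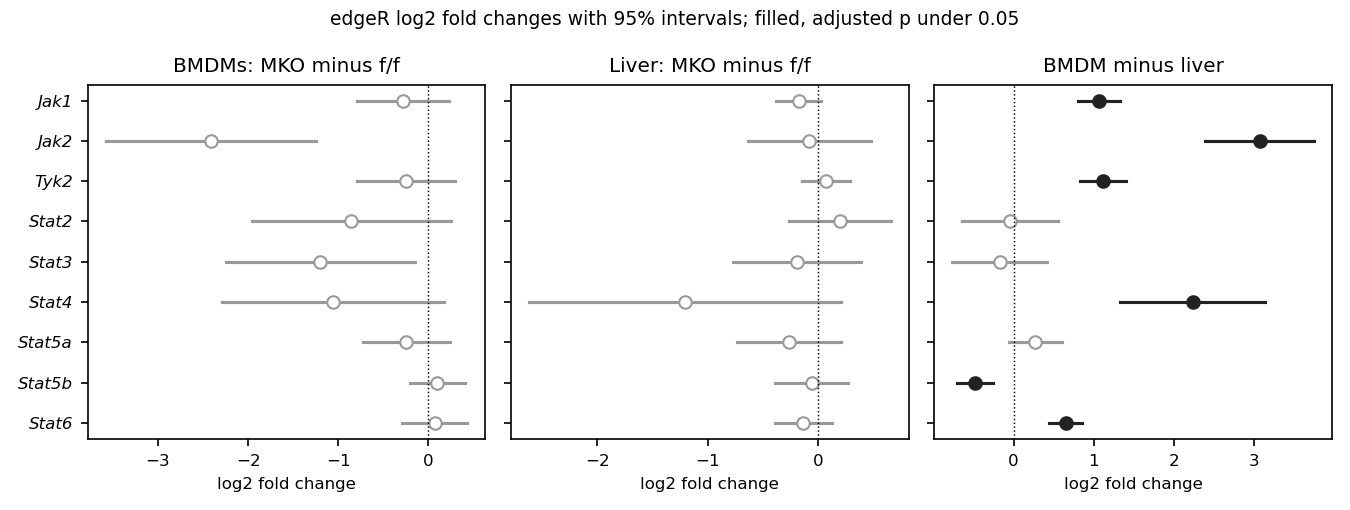
Log2 fold changes with 95% intervals (horizontal axis) of the 9 genes in BMDMs, in livers by label, and between tissues, with filled points where the edgeR adjusted p was under 0.05. No point is filled for genotype, and 6 are filled between tissues, 5 to the right (higher in BMDMs) and *Stat5b* to the left.

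Whether the genotype difference itself differed between the tissues was tested as a difference of the 2 contrasts, with the liver labels taken as given. For *Jak2* it was -2.34 (SE 0.58, 95% interval -3.62 to -1.06; edgeR unadjusted p = 0.0021, adjusted p = 0.16), the genotype difference in BMDMs being the more negative. None of the 9 members passed an adjusted p of 0.05 in edgeR, beside 0.0058% of 17246 genes tested, whereas *Jak2* passed with DESeq2 (adjusted p = 0.00723, beside 4.26% of 15926 genes) and in edgeR without *Tshr* f/f BMDM replicate 2 (-2.62, adjusted p = 0.0403). Without *Tshr* f/f BMDM replicate 3 it was -1.59 (edgeR adjusted p = 0.0826), and the other alternatives gave *Jak2* adjusted p up to 0.378. At an unadjusted p under 0.05 it was the 1 member, beside 14.5% of all genes. For *Stat2* the difference of contrasts was -1.06 (SE 0.54) and for *Stat3* -1.0 (SE 0.54), both with intervals that took in 0. These moved to -0.56 and -0.38 without *Tshr* f/f BMDM replicate 3, and to -1.43 (edgeR unadjusted p = 0.00134, adjusted p = 0.0557) and -1.24 (edgeR unadjusted p = 0.0374, adjusted p = 0.224) without *Tshr* f/f BMDM replicate 2.

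Between tissues the kinases were all more abundant in BMDMs. On a scale shared by all 12 libraries *Jak2* stood at 61.0–629.9 CPM in BMDMs and 11.8–22.8 CPM in livers, an 8.43-fold difference (log2 3.07, SE 0.31; edgeR adjusted p = 4.15e-06). *Jak1* stood at 235.8–395.4 and 123.4–149.4 CPM (log2 1.06, SE 0.12; edgeR adjusted p = 9.58e-06) and *Tyk2* at 69.2–114.8 and 38.2–44.6 CPM (log2 1.12, SE 0.13; edgeR adjusted p = 1.41e-05). In none of the 3 kinases did a BMDM library overlap a liver library. The tissues also differ in culture, hormone treatment, diet and insulin, and these cannot be told apart from cell type.

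The factors were mixed. *Stat6* was higher in BMDMs, at 138.2–175.1 CPM against 92.0–121 CPM and without overlap (log2 0.65, SE 0.09; edgeR adjusted p = 6.96e-05). *Stat4* was higher too, at 0.933–4.10 CPM against 0.206–1.07 CPM (log2 2.24, SE 0.41; edgeR adjusted p = 4.60e-04), with overlapping ranges. *Stat5b* was lower in BMDMs, at 45.8–59.4 CPM against 57.1–85.2 CPM (log2 -0.48, SE 0.10; edgeR adjusted p = 0.00138). *Stat5a* (log2 0.27, 95% interval -0.06 to 0.61), *Stat2* (log2 -0.05, 95% interval -0.65 to 0.55) and *Stat3* (log2 -0.18, 95% interval -0.77 to 0.42) did not pass.

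In all, 6 of 9 members passed between tissues, beside 77.8% of 17246 genes tested (37.3% higher in BMDMs and 40.5% lower), and 4 of 9 (*Jak1*, *Jak2*, *Tyk2* and *Stat6*) had no overlap between the tissues, beside 60.3% of all genes. The scale matters here, because the libraries of the tissues differ in composition: with library totals alone the median log2 difference of all genes moved from -0.04 to 0.85, and *Stat2* (0.79), *Stat3* (0.66) and *Stat5b* (0.40) then had positive values, each still below the median of all genes, as on the main scale. Among *Tshr* f/f libraries alone the *Jak2* difference was 4.23 on the log2 scale, and among *Tshr* MKO libraries alone it was 1.92, both past the threshold.

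The makeup of each family within a library does not depend on scaling between libraries. Of the JAK counts per kilobase, *Jak1* held 47.9 ± 13.2% in BMDMs and 66.5 ± 2.51% in livers (6 libraries each), *Jak2* 36.3 ± 17.7% and 12.4 ± 2.21%, and *Tyk2* 15.9 ± 4.78% and 21.1 ± 1.72%. The 2-sided exact permutation test over 6 against 6 libraries gave p = 0.00649 for *Jak1* and *Jak2* and 0.0312 for *Tyk2*, adjusted over the 9 shares tested. *Jak2* thus held a larger part of the JAK transcripts in BMDMs, and *Jak1* and *Tyk2* smaller ones. A larger share of *Jak2* leaves smaller shares for the others, and by CPM *Jak1* and *Tyk2* were higher in BMDMs, as given above.

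Of the STAT counts per kilobase, *Stat6* held 40.6 ± 10.2% in BMDMs and 27.3 ± 3.47% in livers (exact permutation adjusted p = 0.0325), *Stat5b* 10.0 ± 2.29% and 14.9 ± 2.28% (exact permutation adjusted p = 0.00974), and *Stat4* 0.649 ± 0.351% and 0.155 ± 0.0929% (exact permutation adjusted p = 0.00649). *Stat2* (22.6 and 26.3%), *Stat3* (22.8 and 28.3%) and *Stat5a* (3.34 and 3.02%) did not pass. The calls of *Tyk2* and *Stat6* were the fragile ones, lost in 9 and 10 of 14 alternatives, at adjusted p up to 0.0649.

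Within BMDMs the JAK makeup also stood apart by genotype. *Jak2* held 44.7, 45.1 and 63.7% of the JAK counts per kilobase in *Tshr* f/f and 20.9, 22.6 and 20.7% in *Tshr* MKO, while *Jak1* held 39.3, 43.2 and 27.8% against 59.4, 58.4 and 59.1%. Per kilobase of joined exons, *Jak2* was the most abundant kinase transcript in all 3 *Tshr* f/f libraries and *Jak1* in all 3 *Tshr* MKO libraries. By counts alone *Jak1* was ahead of *Jak2* in *Tshr* f/f replicates 1 and 2, so this order rests on the exon lengths. None of the 3 shares overlapped between groups, and no like figure was computed over all genes. Among the STATs, the shares of *Stat3* (21.5–37.6 and 15.6–20.8%) and *Stat5b* (5.97–10.2 and 11.1–12.2%) did not overlap either, and the others did. The shares within a family add up to its whole, so they are not separate results. The larger shares of *Jak1* and *Tyk2* in *Tshr* MKO did not come with higher CPM. Their fitted log2 fold changes were -0.28 and -0.25, with overlapping groups. With 3 libraries against 3, an exact permutation test cannot give a p under 0.1. In livers *Jak2* held 8.55–14.7% and 11.4–14.0% by label, which overlapped.

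**Figure D4:**
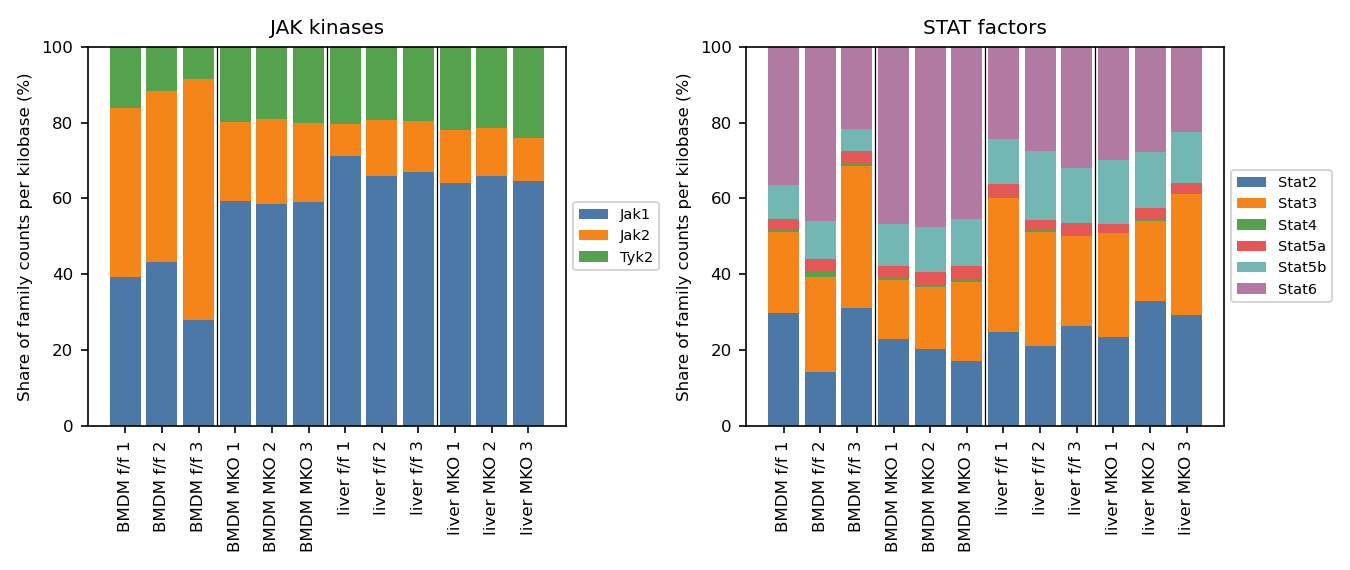
Share (percent) of each gene in the counts per kilobase of the 3 JAKs (left) and the 6 STATs (right), with a stacked bar per library and lines between the groups. The *Jak2* segment takes 44.7–63.7% of the JAK bar in the *Tshr* f/f BMDMs, 20.7–22.6% in the *Tshr* MKO BMDMs and 8.55–14.7% in livers, and the *Stat6* segment is smallest among BMDMs, at 21.6%, in *Tshr* f/f replicate 3.

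The neighbours *Stat5a* and *Stat5b* were compared as a ratio within each library. *Stat5b* exceeded *Stat5a* per kilobase in all 12, by 1.99–3.38 times in BMDMs and 3.22–7.16 times in livers. The size of these folds depends on the length used. Joined exons and longest transcript are 7133 and 3958 bases for *Stat5a*, and 5539 and 5213 bases for *Stat5b*. The difference between tissues does not depend on it. The mean log2 ratio of *Stat5a* to *Stat5b* was -1.56 ± 0.29 in BMDMs and -2.31 ± 0.41 in livers, a difference of 0.75 (2-sided exact permutation p = 0.00649, 6 libraries each). Liver libraries thus carried relatively more *Stat5b*, the form most tied to growth hormone in hepatocytes.

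Across the 12 libraries with the mean of each tissue taken off, the genes whose log2 CPM moved most like a member's were named by Pearson's r among 13244 genes, as a description. *Jak2* was closest to *Procr* (r = 0.985), the endothelial protein C receptor, and *Src* (0.980), a tyrosine kinase. *Stat3* was closest to *Rnmt* (0.984), an mRNA cap methyltransferase, and *Nf1* (0.967), a Ras GTPase-activating protein. *Stat2* was closest to *Rnf31* (0.975), a subunit of the linear ubiquitin ligase, and *Mx2* (0.964), an interferon-induced antiviral GTPase. *Jak1* was closest to *Ier2* (0.981) and *Kdm6b* (0.972), an early-response gene and a histone demethylase, and *Tyk2* to *Nfe2l2* (0.950), the oxidative-stress factor, and *Atxn7* (0.940).

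For the rest, *Stat4* was closest to *Fkbp1a* (0.965) and *Odf2* (0.963), *Stat5a* to *Golga4* (0.936) and *Gm6397* (0.934), *Stat5b* to *Fut8* (0.941) and *Mlxip* (0.933), and *Stat6* to *Fbxo25* (0.923) and *Fnbp1* (0.917). Between members r ran from 0.835 for *Tyk2* with *Stat2* and 0.806 for *Jak1* with *Stat3* to -0.515 for *Stat3* with *Stat6*. The points share their libraries and scaling, and *Tshr* f/f BMDM replicate 3 lay at an end of the range for *Jak1*, *Jak2*, *Tyk2*, *Stat2*, *Stat3*, *Stat5a* and *Stat6*.

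The rest of the pathway was described with lists of ligands, receptors, inhibitors and target genes. In BMDMs, 13 of 18 cytokine genes that signal through JAKs passed the filter on low counts, and all 13 fitted values were lower in *Tshr* MKO, 10 of them at an unadjusted p under 0.05, beside 10.2% of all genes lower at that level. By edgeR 0 had an adjusted p under 0.05 (0% of all genes), and by DESeq2, which tested 16, 7 had (6.73% of all genes). Their median log2 fold change was -5.14, beside 0.01 over all genes, -4.91 with *Il23a* at its bound, and -3.27 without *Tshr* f/f replicate 3. *Ifng*, interferon-γ, had 781, 108 and 922 counts in *Tshr* f/f and 16, 16 and 32 in *Tshr* MKO (log2 fold change -5.14, SE 1.01; edgeR adjusted p = 0.218). *Il12a*, a subunit of interleukin-12, had 376, 317 and 2856 counts in *Tshr* f/f and 6, 0 and 0 in *Tshr* MKO. *Il23a*, a subunit of interleukin-23, had 21, 15 and 164 counts against 0, 2 and 0, at least 30.1-fold lower with 3 counts per library as the floor, and at least 5.49-fold without *Tshr* f/f replicate 3. *Il12a* and *Il23a* passed the filter through the *Tshr* f/f libraries alone, which fixed their direction in advance. The count of 13 lower values and the median include such genes, so neither is a test of direction. The T and NK cell marker sums given above overlapped between the genotypes, and their part in the *Ifng* counts was not tested.

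Receptor chains were mixed in BMDMs. Of 25 tested of 28, 16 were fitted lower and 9 higher (4 and 3 at an unadjusted p under 0.05, beside 10.2% and 7.73% of all genes; median -0.30). With *Tshr* f/f replicate 3 left out the median was about zero and the counts 2 and 6, with *Tshr* f/f replicate 2 left out the median was -0.53, and with *Tshr* MKO replicate 1 left out the counts were 2 and 2. *Il15ra*, the interleukin-15 receptor α chain, had 66.7, 24.1 and 73.2 CPM in *Tshr* f/f and 12.5, 11.8 and 16.6 CPM in *Tshr* MKO (log2 fold change -2.0, SE 0.42; edgeR adjusted p = 0.218). *Il13ra1*, which pairs with the interleukin-4 receptor, had 71.1–96.4 and 45.02–56.9 CPM (log2 fold change -0.76). *Il6st*, which encodes gp130, the shared chain of interleukin-6 receptors, stood at 124.9–156.3 and 152.5–185 CPM (log2 fold change 0.24, SE 0.16).

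Inhibitors were split. All 18 were tested, with 12 fitted lower and 6 higher (5 and 3 at an unadjusted p under 0.05, beside 10.2% and 7.73% of all genes; median -0.16, or 0.05 with scaling by library totals). Without *Tshr* MKO replicate 1 the counts were 1 and 2, without *Tshr* MKO replicate 2 they were 1 and 3, and without *Tshr* f/f replicate 1 they were 3 and 3. *Socs3*, the inhibitor made in response to STAT3, had 205.4, 108.9 and 1241 CPM in *Tshr* f/f and 38.3, 34.3 and 95.3 CPM in *Tshr* MKO (log2 fold change -3.21, SE 1.01; edgeR adjusted p = 0.23). Dropping *Tshr* f/f replicate 3 brought it to -1.5. *Cish*, the inhibitor made in response to STAT5, had 11.1, 11.2 and 30.5 CPM against 2.51, 2.43 and 12.4 CPM, which overlapped. *Socs6* lay the other way, at 22.0–32.9 CPM in *Tshr* f/f and 61.2–69.6 CPM in *Tshr* MKO (log2 fold change 1.25, SE 0.17; edgeR adjusted p = 0.218), as did the adaptor *Sh2b3* (log2 fold change 0.62), both without overlap, beside 28.7% of all genes in either direction.

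Target genes in BMDMs were read by the factor they are known for. All 12 tested targets of the STAT2–IRF9 complex were fitted lower in *Tshr* MKO, 5 at an unadjusted p under 0.05, beside 10.2% of all genes, with a median of -2.27. The controls were far apart: in 10 of the 12 (all but *Cxcl10* and *Rsad2*) *Tshr* f/f replicate 2 lay below all 3 *Tshr* MKO libraries, and 1, *Cxcl10*, had no overlap, beside 14% of all genes lower without overlap. Without *Tshr* f/f replicate 2, 11 of 12 were at that level (median -2.81), and without *Tshr* f/f replicate 3 it was 1 (median -1.38). Leaving out *Tshr* f/f replicate 1 gave 3, leaving out *Tshr* MKO replicate 1 or 2 gave 2, and both the fit lacking *Tshr* MKO replicate 3 and the replicate block gave 1. *Cxcl10*, an interferon-induced chemokine, had 770.7, 29.3 and 1088 CPM in *Tshr* f/f and 13.4–20.5 CPM in *Tshr* MKO (log2 fold change -5.26, SE 1.23; edgeR adjusted p = 0.218), and *Rsad2*, the antiviral enzyme viperin, had 536.4, 75.8 and 1305 CPM against 58.3–98.1 CPM. *Tshr* f/f replicate 2 was the lowest control for both, as it was for *Stat2*, and for *Rsad2* it lay within the *Tshr* MKO range. *Irf9* itself had a log2 fold change of -0.12 (SE 0.20).

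Of the 12 STAT3 targets 8 were tested, 7 fitted lower and 1 higher, 6 of the 7 at an unadjusted p under 0.05, beside 10.2% of all genes lower (median -1.47, or -0.92 with 4 at that level without *Tshr* f/f replicate 3). Without *Tshr* MKO replicate 1 or 2, 2 were at that level. *Lcn2*, lipocalin 2, had 22.5, 281.9 and 898.2 CPM in *Tshr* f/f and 2.69–4.60 CPM in *Tshr* MKO (log2 fold change -6.88, SE 1.37), and *Saa3*, an acute-phase protein made by macrophages, had 2672, 6913 and 15071 CPM against 426–1117 CPM (log2 fold change -3.43, SE 0.72; edgeR adjusted p = 0.218 for both). Without *Tshr* f/f replicate 3 these log2 fold changes were -5.47 and -2.65. The 6 tested STAT5 targets were split 4 and 2 with a median of -0.97 (-0.27 without *Tshr* f/f replicate 3). Of these, *Pim1*, a survival kinase that is also on the STAT3 list, had the lowest p (log2 fold change -1.69, SE 0.54, or -1.12 without *Tshr* f/f replicate 3).

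The 8 STAT6 targets leaned the other way, 2 fitted lower and 6 higher, with 2 higher at an unadjusted p under 0.05, beside 7.73% of all genes. *Mrc1*, the mannose receptor, had 126.3, 53.7 and 70.1 CPM in *Tshr* f/f and 314.8, 247.4 and 532 CPM in *Tshr* MKO (log2 fold change 2.13, SE 0.43), and *Clec10a*, a lectin, had 8.94, 3.09 and 1.77 CPM against 20.0, 15.6 and 51.7 CPM (log2 fold change 2.65, SE 0.74; edgeR adjusted p = 0.218 and 0.221). Their median of 0.58 was 0.02 without *Tshr* MKO replicate 3. *Stat6* itself, as given above, had a log2 fold change of 0.07.

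**Figure D5:**
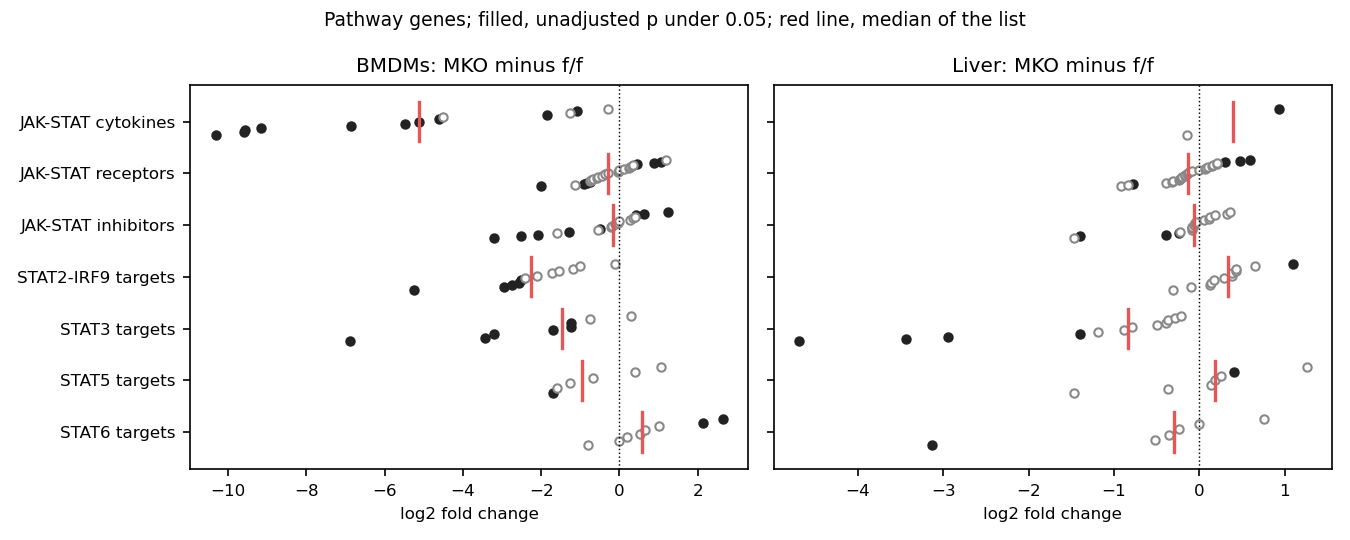
Log2 fold change (*Tshr* MKO minus *Tshr* f/f, horizontal axis) of each tested gene in 7 pathway lists, in BMDMs (left) and in livers by label (right), with filled points at an unadjusted edgeR p under 0.05 and a red line at the list's median. In BMDMs the line lies at -5.14 for cytokines, -2.27 for STAT2–IRF9 targets and 0.58 for STAT6 targets, and in livers the line farthest from zero is that of STAT3 targets, at -0.84.

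In livers 2 of the 18 cytokine genes had enough counts to be tested, of which *Il15* had 13, 17 and 12 counts in f/f-labelled livers and 28, 35 and 25 in MKO-labelled livers (log2 fold change 0.93, SE 0.35). Of 27 receptor chains, 17 were fitted lower and 10 higher, and the growth hormone receptor *Ghr* (300.1, 369.8 and 252.8 CPM against 474.4, 385.4 and 426 CPM; log2 fold change 0.48, SE 0.16) and the leukaemia inhibitory factor receptor *Lifr* (163–227.1 against 243.8–322.2 CPM; 0.59, SE 0.16) were higher without overlap in MKO-labelled livers, beside 17.3% of all liver genes without overlap in either direction. *Il6st* was at 149.5–196.8 and 139.2–154.1 CPM (log2 fold change -0.23). Of 17 inhibitors, 11 were fitted lower and 6 higher. *Socs3* had 40.7, 16.4 and 37.99 CPM against 6.45, 8.93 and 20.9 CPM (log2 fold change -1.40, SE 0.52; edgeR adjusted p = 0.437), and *Ptpn11*, the phosphatase SHP2, had 73.0–82.9 against 64.5–68.9 CPM (-0.23).

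The 12 STAT3 targets were all fitted lower in MKO-labelled livers, 4 at an unadjusted p under 0.05, beside 5.18% of all genes lower at that level, and 0 at an adjusted p of 0.05 by edgeR (by DESeq2 1, *Saa2*, beside 1.68% of all genes), with a median of -0.84. Leaving out *Tshr* f/f replicate 1, *Tshr* MKO replicate 1 or *Tshr* MKO replicate 2 left 0 at an unadjusted p under 0.05 (medians -0.53, -0.66 and -0.76). There were 7 without *Tshr* f/f replicate 2, 8 without *Tshr* MKO replicate 3, and 1 with the replicate block and with no filter on low counts. *Saa2*, an acute-phase protein made by hepatocytes, had 8956, 101.8 and 1921 CPM in f/f-labelled livers and 35.8, 68.3 and 322.4 CPM in MKO-labelled livers (log2 fold change -4.69, SE 1.63), and *Saa1* had 8155, 359.6 and 1562 against 100.9, 176.1 and 651.3 CPM. The liver with the most of both, *Tshr* f/f replicate 1, also had the highest sum of neutrophil markers, 66.9 CPM against 6.30–21.6 CPM in the other 5 livers, and the most *Stat3*. The part of those cells was not tested.

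The 12 STAT2–IRF9 targets were fitted 2 lower and 10 higher in MKO-labelled livers (1 at an unadjusted p under 0.05, *Cxcl10*, at 1.25–2.12 against 2.49–5.95 CPM; median 0.33, or 0.08 without *Tshr* f/f replicate 1), and *Isg15*, a ubiquitin-like antiviral protein, had 4.40–7.03 against 7.04–12.99 CPM. By edgeR 10.5% of all liver genes were at that unadjusted p, in either direction. *Irf9* was at 40.6–47.5 and 39.6–55.6 CPM. Of 7 STAT5 targets, 2 were fitted lower and 5 higher, among them the growth hormone targets *Igfals* (50.6–63.04 against 68.8–79.4 CPM; log2 fold change 0.40, SE 0.11) and *Igf1* (325.3–402.3 against 411.1–466.2 CPM; 0.26, SE 0.12), both without overlap, beside 17.3% of all liver genes in either direction. *Cish* had 5.38, 4.63 and 28.8 CPM against 6.23, 2.5 and 5.27 CPM, and its log2 fold change of -1.47 was -0.11 without *Tshr* f/f replicate 3. Of 6 STAT6 targets, 5 were fitted lower, and *Chil3*, a chitinase-like protein of macrophages, had 11.1, 3.12 and 1.73 CPM against 0.531, 0.548 and 0.743 CPM (log2 fold change -3.13, SE 0.73; edgeR adjusted p = 0.334), and -2.0 without *Tshr* f/f replicate 1. The neutrophil marker sums of the same livers were 66.9, 21.6 and 6.30 CPM against 7.21, 13.3 and 14.8 CPM. The part of those cells in *Chil3* was not tested. *Fn1*, fibronectin, which hepatocytes make in quantity, had 2169–3578 against 1481–2226 CPM. The median of all liver genes was -0.01, and none of these list genes passed an adjusted p of 0.05 in edgeR.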

How the data were processed

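Strand-specific RNA-seq libraries were read on an Illumina NovaSeq instrument. The authors deposited a table of read counts per gene for 12 libraries, with no replicates pooled. Per the submitters' processing notes, FastQC 0.11.2, STAR, StringTie and mm10 were used, and the paper names Skewer for trimming. The counting program is not given in the sources used here, so how reads shared by near-identical or overlapping genes were assigned is unknown. Of 55335 genes, 55154 are in GENCODE M21, which gave positions and exon lengths. The total counts per library of 28962878–40954211 set the precision.

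Genes were tested with edgeR 4.0.16 in R 4.3.3 (quasi-likelihood test with robust fitting, filterByExpr and TMM factors), and p-values were adjusted by Benjamini–Hochberg over all genes of a comparison. The genotypes were compared within each tissue on 6 libraries, and the tissues and the difference of the genotype contrasts on all 12. CPM were scaled by TMM factors within a tissue unless all 12 libraries are named, and TPM were computed from the deposited counts over the union of exons. The study's own test, the MARS model in DEGseq described for a pair of samples, was not used. Shares and ratios were tested with 2-sided exact permutation tests (scipy 1.17.1).

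The members and the lists of cytokines, receptors, inhibitors, targets and cell-type markers were chosen with earlier results of these data known. *Socs2*, *Socs3*, *Cish*, *Pim1*, *Osm* and *Il4ra* are each on more than a single list and count in each, so the lists are not independent. Genes named beside the members were the 2 most correlated with each, at most 2 per list with the lowest unadjusted p in a genotype comparison, and *Il6st*, *Socs3*, *Cish* and *Irf9*; *Il23a* was named after its values were seen. Promoters were taken from RefSeq (GRCm38.p6). Alternatives were RLE and upper-quartile scaling, no filter, DESeq2 1.42.0, a replicate block, all 12 libraries in a fit, the first letter of the liver sample name as a covariate, the f/f or MKO libraries alone between tissues, other exon lengths and each library left out; library totals alone were added after seeing the data. Counts were also simulated with a spread taken from the real libraries. For BMDMs (15372 genes) edgeR recovered 28% of genes changed by 1 on the log2 scale and 96% of those changed by 2. For liver (15062 genes) the shares were 57% and 99%. In the real BMDM fit 0 genes passed (lowest edgeR adjusted p = 0.218), although 1.65% had a log2 fold change below the -2.41 of *Jak2*. The simulated shares therefore do not give the chance of a call in the real BMDM libraries.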

Additional observations from a re-analysis of the deposited data

How the results depend on the processing

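Of 711 values of single members under the alternatives, 654 kept their direction and side of the threshold, 19 lost a call, 11 gained one and 27 changed sign. Of these 27, 3 were past the threshold in either fit: *Stat2* (0.79), *Stat3* (0.66) and *Stat5b* (0.40) between BMDM and liver with library totals alone, a scale that moved the median of all genes from -0.04 to 0.85. The other 24 were past it in neither fit. Between tissues, *Stat2* changed sign with upper-quartile factors (0.12), no filter (0.045), DESeq2 (0.0070) and the f/f libraries alone (0.47), and ranged over -0.27 to 0.14 with each library left out, and *Stat3* changed sign with the f/f libraries alone (0.32). For genotype with each library left out, *Stat5b* ranged over -0.0021 to 0.17 and *Stat6* over -0.0011 to 0.13 in BMDMs, and *Jak2* over -0.32 to 0.092 and *Stat5b* over -0.19 to 0.089 in liver. The difference of contrasts ranged over -0.22 to 0.096 for *Jak1* (0.079 with library totals), -0.30 to 0.85 for *Stat4* and -0.15 to 0.26 for *Stat5a*. For genotype in BMDMs, the members at an adjusted p under 0.05 went from 0 to 1 (*Jak2*) with DESeq2 and with all 12 libraries in a fit. Those at an unadjusted p under 0.05, 2 in the reported fit, ranged over 1–4 with each library left out. All genes at an adjusted p under 0.05 went from 0 to 1100 with DESeq2 and 150 with all 12 libraries in a fit, and ranged over 0–13 with each library left out, 13 being without *Tshr* f/f replicate 2. In liver, the members at an unadjusted p under 0.05 ranged over 0–1 with each library left out, and all genes at an adjusted p under 0.05 went from 0 to 1 with no filter and 220 with DESeq2, and ranged over 0–7.

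For the difference of the genotype contrasts, the members at an adjusted p under 0.05 went from 0 to 1 (*Jak2*) with DESeq2 and ranged over 0–1 with each library left out, and those at an unadjusted p ranged over 1–4. All genes went from 1 to 3 with upper-quartile factors, 2 with library totals and 678 with DESeq2, and ranged over 0–341, 341 being without *Tshr* f/f BMDM replicate 2. Of all genes between tissues, 9799 were called higher and 4254 lower with library totals, against 6429 and 6984. Whether replicate numbers pair the samples could not be decided. Deviations of same-numbered libraries correlated at 0.152, 0.0357 and 0.118 in BMDMs and -0.0755, 0.254 and -0.0331 in liver. Those of different-numbered libraries ranged over -0.208 to 0.164 and -0.356 to 0.373, which take in the same-numbered values. The paper calls the mice littermates, but the labels do not say which libraries came from the same litter. With the replicate block, 1 gene of all was called in BMDMs and 0 for the difference of contrasts, and no member's call changed. The cause of these changes was not tested. *Stat4* in liver, with 4–27 counts, is limited by depth.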

Other observations

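Between tissues, the pathway around the 9 genes was also unevenly spread. Of 13 tested cytokine genes 12 were called higher in BMDMs than in livers by edgeR and 0 lower, of 28 receptor chains 17 higher and 8 lower, and of 18 inhibitors 10 higher and 2 lower, beside 37.3% of all genes higher and 40.5% lower. Targets of STAT2–IRF9 (10 higher and 0 lower of 12) and of STAT6 (5 and 0 of 8) were called higher in BMDMs more often than lower, whereas those of STAT3 (5 higher and 6 lower of 12) and STAT5 (2 higher and 5 lower of 8) were split. Whether any list differed from all genes was not tested. The median log2 differences were 6.89 for cytokines, 1.75 for receptors, 0.95 for inhibitors, 2.78 for STAT2–IRF9 targets, -1.91 for STAT3 targets, -1.46 for STAT5 targets and 2.16 for STAT6 targets, beside -0.04 over all genes.

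Markers of other cells were summed per library. Kupffer cell markers summed to 195–590 CPM in livers and 64.8–505 CPM in BMDMs, where the defining *Clec4f* was at 0. Endothelial markers summed to 41.6–140 CPM in livers and stellate and fibroblast markers to 25.3–224 CPM, with the lowest sum of both in the *Tshr* f/f liver replicate 1. In BMDMs the stellate and fibroblast markers summed to 614–1762 CPM in *Tshr* f/f and 378–733 CPM in *Tshr* MKO, above every liver, with *Lrat* at 0. Dendritic cell markers summed to 3.04–5.95 CPM in BMDMs and 3.88–7.76 CPM in livers. Neutrophil markers summed to 4.93–45.9 CPM and B cell markers to 0.576–4.13 CPM in BMDMs. In livers the 7 macrophage markers summed to 123–314 CPM under the f/f label and 128–294 CPM under the MKO label. Of these markers, *Lyz2* had 56 counts in MKO-labelled replicate 1 and 818–4473 counts in the other livers, a gap whose cause was not tested. The part of these cells in the members' values was not tested.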
